A study of Mus musculus with 2 samples.

Results

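The genes described here encode the subunits of the GABA and glutamate receptors, the main inhibitory and excitatory neurotransmitter receptors of the brain. They were taken by gene name from the merged expression table, which gave 39 of its 26840 genes. The 39 were 14 GABA-A subunits (5 alpha, 3 beta, 3 gamma, and delta, epsilon and theta), 2 GABA-B subunits, 16 ionotropic glutamate receptor subunits (4 AMPA, 7 NMDA and 5 kainate) and 7 metabotropic glutamate receptors. Levels come from Drop-seq, in which each cell is caught in a droplet with a barcoded bead and the 3′ ends of its transcripts are counted by unique molecular identifiers (UMIs). The cells were dissected from the arcuate nucleus and median eminence at the base of the mouse hypothalamus. The Irx5KO library came from 6 pooled mice with both copies of the homeobox gene Irx5 lost (Irx5-/-), and the wild-type (WT) library from 7 pooled mice. All were CD-1 mice aged 7 to 8 weeks, and live cells were sorted before capture. Pooling leaves 1 library per genotype, so no difference between genotypes has a replicate check, no test was made, and every 95% interval covers counting error only.

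After filtering, the Irx5KO library held 1960 cells (593 to 14339 UMIs each) and the WT library 1832 cells (587 to 14524). The libraries shared 1 barcode sequence. Irx5 had 0 UMIs in the Irx5KO library and 13 in the WT library, and the labels do not say which part of the gene is deleted. Cells were grouped into classes without using the receptor genes, and each class was named from its markers and is called "like" its type. Neuron-like cells numbered 897 in Irx5KO and 626 in WT. There were 400 and 285 tanycyte-like cells, glia that line the floor of the ventricle. Oligodendrocyte precursor (OPC)-like cells numbered 77 and 185, and oligodendrocyte-like cells 121 and 193. Receptor UMIs made up 0.247% of all UMIs in Irx5KO and 0.192% in WT, and all 39 genes had at least 1 UMI.

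GABA-A receptors are chloride channels built from several subunits, most often alpha, beta and gamma, and the subunits present set how the channel responds and whether it lies inside or outside the synapse. GABA-B receptors act through G proteins and need both of their subunits to reach the cell surface and signal. AMPA receptors carry most fast excitation, NMDA receptors pass calcium, kainate receptors modulate release and excitability, and metabotropic glutamate receptors couple to G proteins. In the arcuate nucleus GABA and glutamate inputs reach the neurons that control feeding, growth hormone and reproduction.

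Many of the GABA-A genes lie in clusters. By the GENCODE M21 annotation of mm10, Gabrg1 (chr5:70751047-70842617), Gabra2, Gabra4 and Gabrb1 (ending at 72149037) sit side by side on chromosome 5. Gabrg3 and Gabra5 are neighbours on chromosome 7 (56716465 to 57510059), and Gabre, Gabra3 and Gabrq on the X chromosome (72255999 to 72842602). Below, the 100 bases just upstream of the RefSeq start of 4 genes are shown (GRCm38.p6, 5′ to 3′ on the gene's strand). Grik3 and Grm3 are shown because their levels were higher in glia-like than in neuron-like cells. Gabra5 and Gabrq are shown because they were further above WT in Irx5KO neuron-like cells than most members. Capitals mark the GC box (GGGCGG or its reverse complement CCGCCC). No TATAAA box was found in these 4 windows on either strand.

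Grik3, chr4:125490596-125490695, plus strand: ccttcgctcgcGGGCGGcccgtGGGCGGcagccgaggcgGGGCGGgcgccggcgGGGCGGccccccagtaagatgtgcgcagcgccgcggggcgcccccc
Grm3, chr5:9725353-9725452, minus strand: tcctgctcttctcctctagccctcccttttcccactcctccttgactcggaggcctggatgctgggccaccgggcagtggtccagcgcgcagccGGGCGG
Gabra5, chr7:57510060-57510159, minus strand: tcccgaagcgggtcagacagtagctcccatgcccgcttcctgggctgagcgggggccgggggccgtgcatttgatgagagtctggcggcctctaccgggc
Gabrq, chrX:72825078-72825177, plus strand: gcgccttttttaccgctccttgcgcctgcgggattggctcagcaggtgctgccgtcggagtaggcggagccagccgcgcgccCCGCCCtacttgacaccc

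RefSeq windows were found for 26 of the 39 genes (33 windows). Over the 250 bases upstream of each start, 51.5% of the 33 windows held a GC box on either strand, against 32.7% of all 32851 windows. A TATAAA box was in 12.1% of member windows and 12.4% of all windows. These shares describe the letters only.

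Neuron-like cells held 10817 of the 12228 receptor UMIs in Irx5KO and 5741 of 7507 in WT. Levels are given as CPM, a gene's UMIs scaled to a common class total. Counting is of 3′ ends, so CPM was not corrected for gene length. Whether different genes are captured and counted alike was not tested, so orders between genes are orders of counts. Of the 33 members with at least 50 UMIs over all cells, 27 had a level in neuron-like cells that was 2-fold or more above that of the other cells in both libraries. Among all 14372 genes with as many UMIs, 11.9% were. Grik3 and Grm3 had a neuron-like level 2-fold or more below the other cells in both libraries, which 17% of genes had, and Gria3, Gria4, Grik5 and Grin3a were neither. Among the 6 classes that had 50 cells or more in each library, 20 of the 39 members were highest in neuron-like cells in both libraries and 13 were highest in another class in both. The share of all genes was not taken for this, so these counts have no background beside them. The 39 include 6 with fewer than 50 UMIs over all cells. One of these, Grm4 (42 UMIs), was highest in OPC-like cells in Irx5KO and in tanycyte-like cells in WT.

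AMPA receptor subunits were the most abundant glutamate receptor genes of neuron-like cells, and their 4 genes summed to 1069.5 CPM in Irx5KO and 1032.9 CPM in WT. Gria2, whose edited form makes AMPA receptors nearly impermeable to calcium, supplied most of it, at 684 CPM in Irx5KO (2116 UMIs) and 680 CPM in WT (1213 UMIs; ratio 1.01, 95% interval 0.937 to 1.08). Gria1 stood at 212 and 214 CPM, Gria4 at 103.5 and 88.55 CPM, and Gria3 at 69.5 and 50.4 CPM in Irx5KO and WT. The order Gria2, Gria1, Gria4, Gria3 was the same in both libraries, and the counting intervals of neighbours in it did not overlap in either.

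GABA-A subunits together reached 1596.8 CPM in Irx5KO and 1337.2 CPM in WT neuron-like cells. Among alpha subunits, which largely set the response to benzodiazepines, Gabra2 was highest at 281 CPM in Irx5KO and 225 CPM in WT. Gabra3 followed at 197.5 and 171.5 CPM. Their intervals overlapped in neither library (262 to 299.9 against 182 to 214 CPM in Irx5KO, and 203 to 248 against 153 to 192 CPM in WT). Gabrb1 was the highest beta gene (185 and 162 CPM). Of the gamma genes, Gabrg1 was at 74.4 and 61.1 CPM and Gabrg3 at 62.1 and 48.2 CPM. The delta subunit Gabrd, which in other brain regions serves tonic inhibition, had 0 UMIs in Irx5KO and 1 in WT neuron-like cells. At 3 counts a level of up to 0.970 CPM in Irx5KO cannot be told from 0.

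Counts of the GABA-B genes were uneven. Gabbr1, which binds GABA, was at 262.5 CPM in Irx5KO and 254 CPM in WT neuron-like cells, and its partner Gabbr2, which couples to the G protein, at 39.8 and 34.2 CPM.

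NMDA and kainate receptor genes were lower. Grin1, the obligate NMDA subunit, was at 76.6 CPM in Irx5KO and 76.8 CPM in WT. Exons of an antisense gene, Grin1os, lie in its last 1000 bases, and Grin1os, whose name begins like a subunit's but which was not taken as one, had 3 UMIs in Irx5KO and 5 in WT over all cells. The sources used here do not state whether counting used strand. Of the glutamate-binding NMDA subunits, Grin2b (53.7 and 65.0 CPM) was above Grin2a (17.8 and 12.3 CPM), and their intervals did not overlap in either library. Grin3a, a glycine-binding subunit, was at 35.2 and 39.8 CPM. Of the kainate subunits, Grik2 (53.4 and 50.4 CPM) and Grik5 (52.05 and 54.4 CPM) had overlapping intervals and stood highest. Grik1 was at 23.9 and 29.1 CPM. Metabotropic receptors were led by Grm5 (80.2 and 76.2 CPM), which raises intracellular calcium. The presynaptic receptor Grm7 was at 20.05 and 23.5 CPM. Grin2c, Grin2d, Grin3b, Grm2, Grm3 and Grm4 had fewer than 50 UMIs over both libraries in neuron-like cells.

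**Figure D1:**
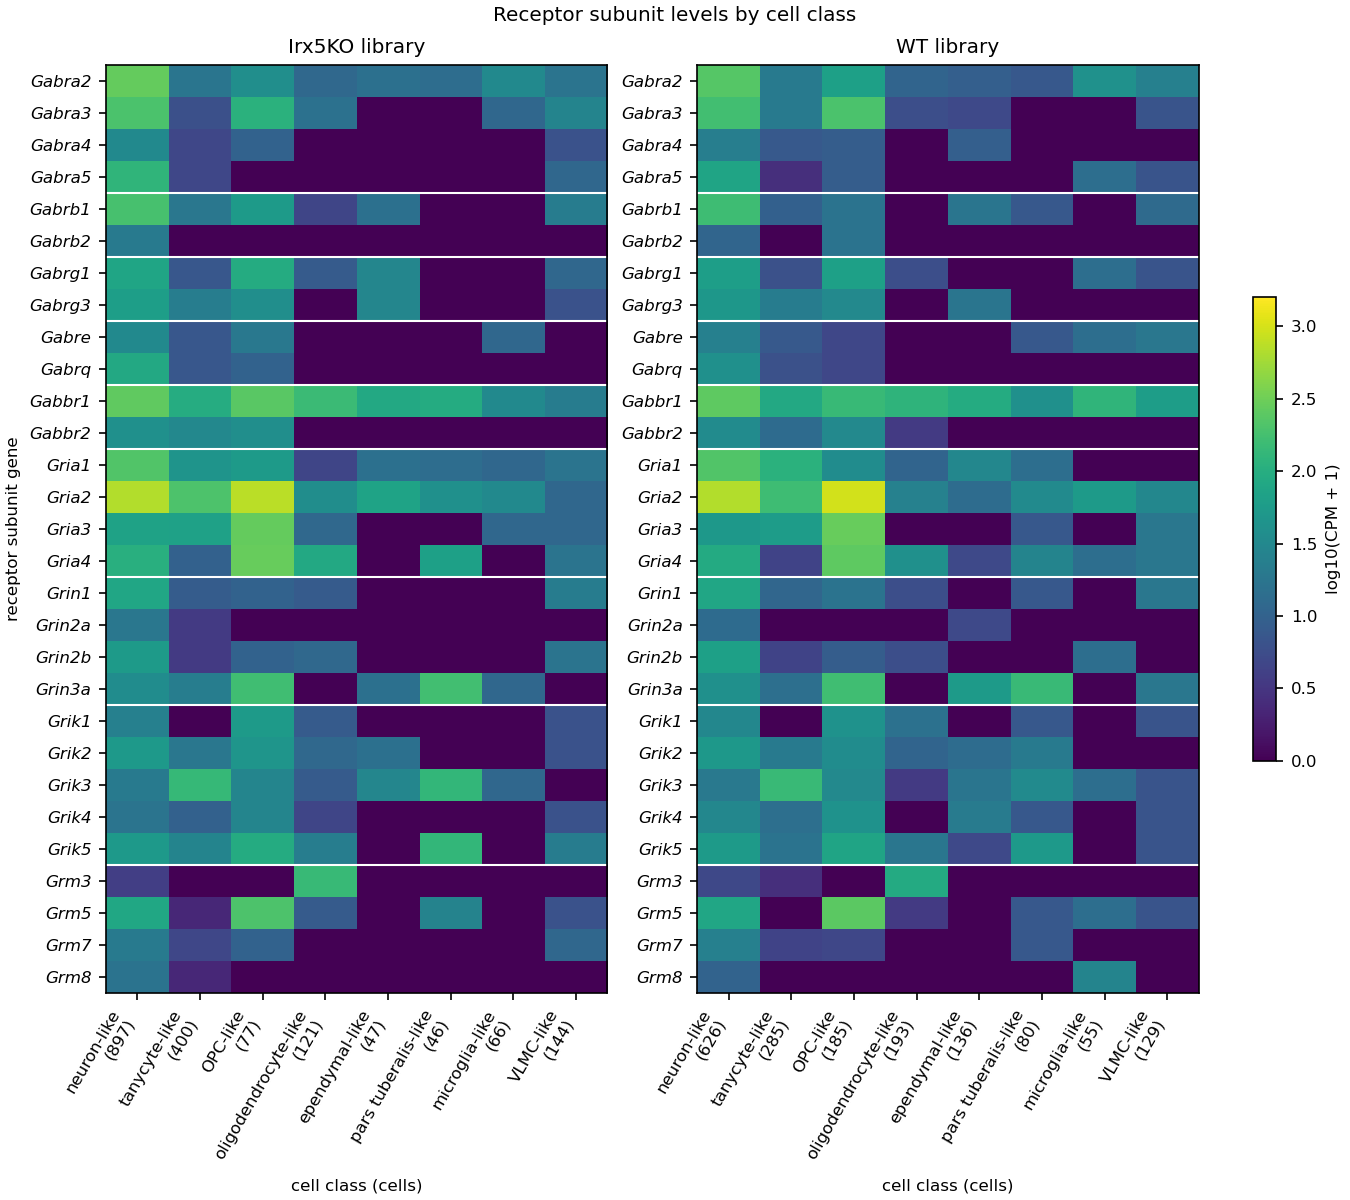
Levels of members with at least 50 UMIs over all cells, some of which were left out, as log10(CPM + 1). Columns are cell classes, with the number of cells, for the Irx5KO library on the left and the WT library on the right. Most rows are brightest in neuron-like cells, while Grik3 is brightest in tanycyte-like cells, Grm3 in oligodendrocyte-like cells, and Gria2, Gria3, Gria4, Grin3a and Grm5 are bright in OPC-like cells.

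OPC-like cells carried AMPA receptor transcripts at or above the neuron-like level. OPCs are known to receive glutamatergic synapses. Gria2 was at 732 CPM in Irx5KO (80 UMIs in 42 cells) and 962 CPM in WT (251 UMIs in 123 cells), 107% and 141.5% of the level in neuron-like cells. Gria3 was at 275 and 287 CPM and Gria4 at 284 and 257 CPM. Those levels were 395% and 570% of neuron-like cells for Gria3, and 274% and 290% for Gria4. Grin3a (18 and 43 UMIs, 468% and 414%) and Grm5 (22 and 64 UMIs, 251% and 322%) stood above neuron-like cells in both libraries as well, whereas Gria1 was at 25.9% and 16.1%. The 10 neuron markers summed in OPC-like cells to 15.2% of the neuron-like level in Irx5KO and 7.66% in WT, less than the share of any of the 5 genes above. With each cell thinned to 1000 UMIs, Gria2 was counted in 50.9% of 57 OPC-like cells in Irx5KO (95% Clopper-Pearson interval 37.3 to 64.4%) and 63.1% of 130 in WT (54.2 to 71.4%). In neuron-like cells it was counted in 50.7% (47.05 to 54.2%) and 46.9% (42.5 to 51.3%), so the intervals overlapped in Irx5KO and not in WT. It was counted in 2.33% and 3.45% of microglia-like cells, a class that serves as background. The unthinned shares were 54.5% and 66.5% in OPC-like, 75.1% and 68.2% in neuron-like, and 4.55% and 5.45% in microglia-like cells, whose median depths were 1262.5 and 1019 UMIs against 1327 and 1239 in OPC-like cells. The next stage, committed precursor (COP)-like cells, had Gria2 at 1332.5 CPM in 15 Irx5KO cells and 1502.1 CPM in 21 WT cells.

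In oligodendrocyte-like cells the AMPA genes were lower and Grm3 was counted instead. Gria2 was at 36.4 CPM in Irx5KO and 24.5 CPM in WT there, 5.32% and 3.61% of the neuron-like level. Grm3, a receptor that lowers cAMP, had 39 UMIs in 33 oligodendrocyte-like cells in Irx5KO and 36 UMIs in 26 cells in WT. Those were most of its 48 and 44 UMIs over all cells of each library. After thinning it was counted in 13.5% and 8.59% of oligodendrocyte-like cells (27.3% and 13.5% unthinned), in 0.260% and 0.195% of neuron-like cells and in no OPC-like cell of either library. With 57 and 130 OPC-like cells, a share of up to 6.27% in Irx5KO and 2.80% in WT lies inside the 95% Clopper-Pearson interval. Gabbr1 (149 and 120 CPM) and Gria4 (83.8 and 39.2 CPM) were the other members with at least 20 UMIs there.

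Tanycyte-like cells split into 2 clusters with different glutamate receptor genes. The larger cluster, led by the marker Crym, had 297 cells in Irx5KO and 209 in WT, and the smaller, led by Scn7a, had 103 and 76. Grik3, a kainate receptor subunit, was at 340 CPM in Irx5KO and 343 CPM in WT in the Scn7a-led cluster, and at 37.9 and 40.2 CPM in the Crym-led one. Gria3 was at 185 and 152 CPM in the Scn7a-led cluster and at 7.58 and 5.36 CPM in the Crym-led one. Gria2 had the opposite order, with 41.6 and 63.8 CPM in the Scn7a-led cluster and 279 and 214 CPM in the Crym-led one. The intervals of the clusters did not overlap in either library for any of these 3 genes. Gria3 in tanycyte-like clusters was looked at after its values were seen. Over all tanycyte-like cells Grik3 had 110 UMIs in Irx5KO and 85 in WT, or 704% and 796% of the neuron-like level, and after thinning it was counted in 9.69% of 320 and 8.71% of 241 cells. In neuron-like cells the thinned share was 2.21% and 1.75%, and in microglia-like cells it was 0% of 43 and 29 cells, with upper limits of 8.22% and 11.9%. Neuron markers summed to 18.2% and 18.8% of the neuron-like level in tanycyte-like cells. Gria2 stood at 29.2% and 23.7% and Gabbr1 (96.0 and 83.2 CPM) at 36.6% and 32.8% of that level over both clusters, and the part of neuron RNA in these values was not tested.

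**Figure D2:**
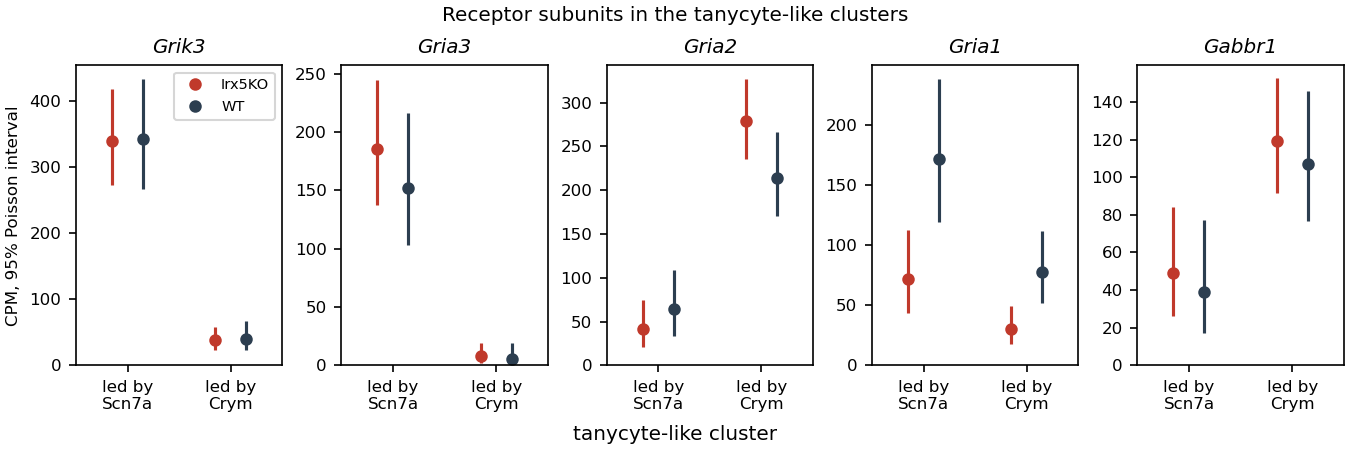
CPM with 95% Poisson intervals of 5 members in the Scn7a-led and Crym-led tanycyte-like clusters, Irx5KO in red left of WT in dark blue. Grik3 and Gria3 are high in the Scn7a-led cluster of both libraries and Gria2 in the Crym-led one, and Gria1 is lower in Irx5KO in both clusters.

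Microglia-like cells and vascular leptomeningeal (VLMC)-like cells, the fibroblast-like cells of the meninges and vessels, had no member with 20 UMIs. Over both libraries their highest count was for Gabbr1, with 3 UMIs in Irx5KO and 9 in WT microglia-like cells, and 4 and 10 in VLMC-like cells. In pars tuberalis-like cells, of the pituitary stalk, Grin3a had 13 UMIs in 46 cells in Irx5KO and 22 UMIs in 80 cells in WT, or 170.4 and 146.5 CPM. Neuron markers reached 22.2% and 19.2% of the neuron-like level there, and Grin3a 484% and 368%. Grik3 stood at 665% in Irx5KO and 180% in WT in the same cells. With 46 Irx5KO cells this class was under the minimum of 50, so the naming rules did not cover it.

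Neuron types differed in their receptor genes in ways that recurred in both libraries. Neuron-like cells were clustered again, also without the receptor genes, and 9 clusters or types had at least 20 cells in each library. They were SCN-like cells, with markers of the suprachiasmatic nucleus (98 Irx5KO and 135 WT cells), Pomc-like cells (47 and 73), and 7 clusters without a name, called here by their leading gene. The largest of these, led by A230103L15Rik (138 and 105 cells), has Kcnq1ot1, a nuclear RNA, among its leading genes. The Avp-led cluster (131 and 86 cells) had the lowest depth, with a median of 1235 UMIs.

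The Foxb1-led cluster (30 Irx5KO and 42 WT cells) was the highest of the 9 types for several members in both libraries. Gabra4, an alpha subunit found outside synapses in other brain regions, was at 154 CPM in it and 28.1 CPM in the other neuron-like cells in Irx5KO, a 5.49-fold ratio (3.002 to 9.45). In WT it was at 132 and 16.5 CPM, 7.98-fold (3.70 to 16.2). Gabbr2 was 4.01-fold (2.17 to 6.90) and 8.42-fold (4.63 to 14.8) higher there in Irx5KO and WT. Gria2 reached its highest level of the 9 types there, 1263.6 CPM in Irx5KO and 1308.6 CPM in WT. Grm2, a presynaptic receptor that lowers transmitter release, had 9 of its 23 neuron-like UMIs in these cells in Irx5KO and 18 of 22 in WT. It was picked out after its values were seen, and exons of Gm28111, on the opposite strand, overlap its last 1000 bases. Gabrg3 had 0 UMIs in the Foxb1-led cluster in both libraries. In this small cluster 1 UMI is 9.65 CPM in Irx5KO and 11.0 CPM in WT, so a low level cannot be told from 0.

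SCN-like cells were the highest type for Gabrg3, with 110.3 CPM in Irx5KO and 93.2 CPM in WT. That was 1.91-fold (1.23 to 2.86) and 2.43-fold (1.51 to 3.86) above the other neuron-like cells. Grik1 was 1.75-fold (0.800 to 3.43) and 2.02-fold (1.05 to 3.73) above them, and Gria4 1.16-fold and 1.07-fold with intervals that included 1. Gabra5, an alpha subunit tied to tonic inhibition, was low in SCN-like cells, with 6 UMIs in each library, 0.176 and 0.216 times the level of the other neuron-like cells in Irx5KO and WT. Grin2c, an NMDA subunit best known from the cerebellum, had 4 of 5 neuron-like UMIs in SCN-like cells in Irx5KO and 9 of 11 in WT, and it too was picked out after its values were seen.

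The A230103L15Rik-led cluster had more Gabbr2 (3.02-fold in Irx5KO and 3.74-fold in WT) and Grm5 (2.50-fold and 2.58-fold) than the other neuron-like cells, with every interval above 1. In the Pdyn-led cluster (72 and 31 cells), Gria3 was at 171 CPM in Irx5KO and 167 CPM in WT, 2.78-fold (1.91 to 3.95) and 3.73-fold (1.95 to 6.66) above the others. Grm5 was 2.27-fold and 3.91-fold higher there. In the Bace2-led cluster Grin3a was 1.96-fold (1.08 to 3.35) and 1.76-fold (0.859 to 3.30) higher. Gabrq was 2.27-fold and 1.44-fold higher, and Grik5 2.30-fold and 1.34-fold. For both genes the WT interval included 1. In the Sst-led cluster Gabra5 was 1.59-fold (1.23 to 2.04) and 1.65-fold (0.926 to 2.75) higher.

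In Pomc-like cells no member with at least 10 UMIs in each library stood far above the other neuron-like cells in both libraries. Gabra3 was at 1.24-fold in Irx5KO and 1.20-fold in WT, and Gria1 at 1.03-fold and 1.31-fold. Other members differed in 1 library and not in the other. Gria4 was 1.88-fold higher (1.30 to 2.64) in Irx5KO and at 0.776 (0.460 to 1.25) in WT, and Gabra5 was at 1.52 (1.06 to 2.13) and 0.635 (0.337 to 1.11). Gabrb1 was at 1.08 (0.762 to 1.48) in Irx5KO and 0.335 (0.192 to 0.546) in WT. Grik5, with 3 and 17 UMIs, was at 0.265 (0.0540 to 0.788) and 1.14 (0.632 to 1.94). These 4 were picked out after their values were seen. In the Tac1-led cluster Grik2 was at 1.17-fold in Irx5KO and 1.39-fold in WT, and Gria4 at 1.07-fold and 1.16-fold. In the Avp-led cluster Grm5 was at 1.08-fold and 1.06-fold. In the Sst-led cluster Gabrb1 was at 0.956 in Irx5KO and 1.15 in WT.

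**Figure D3:**
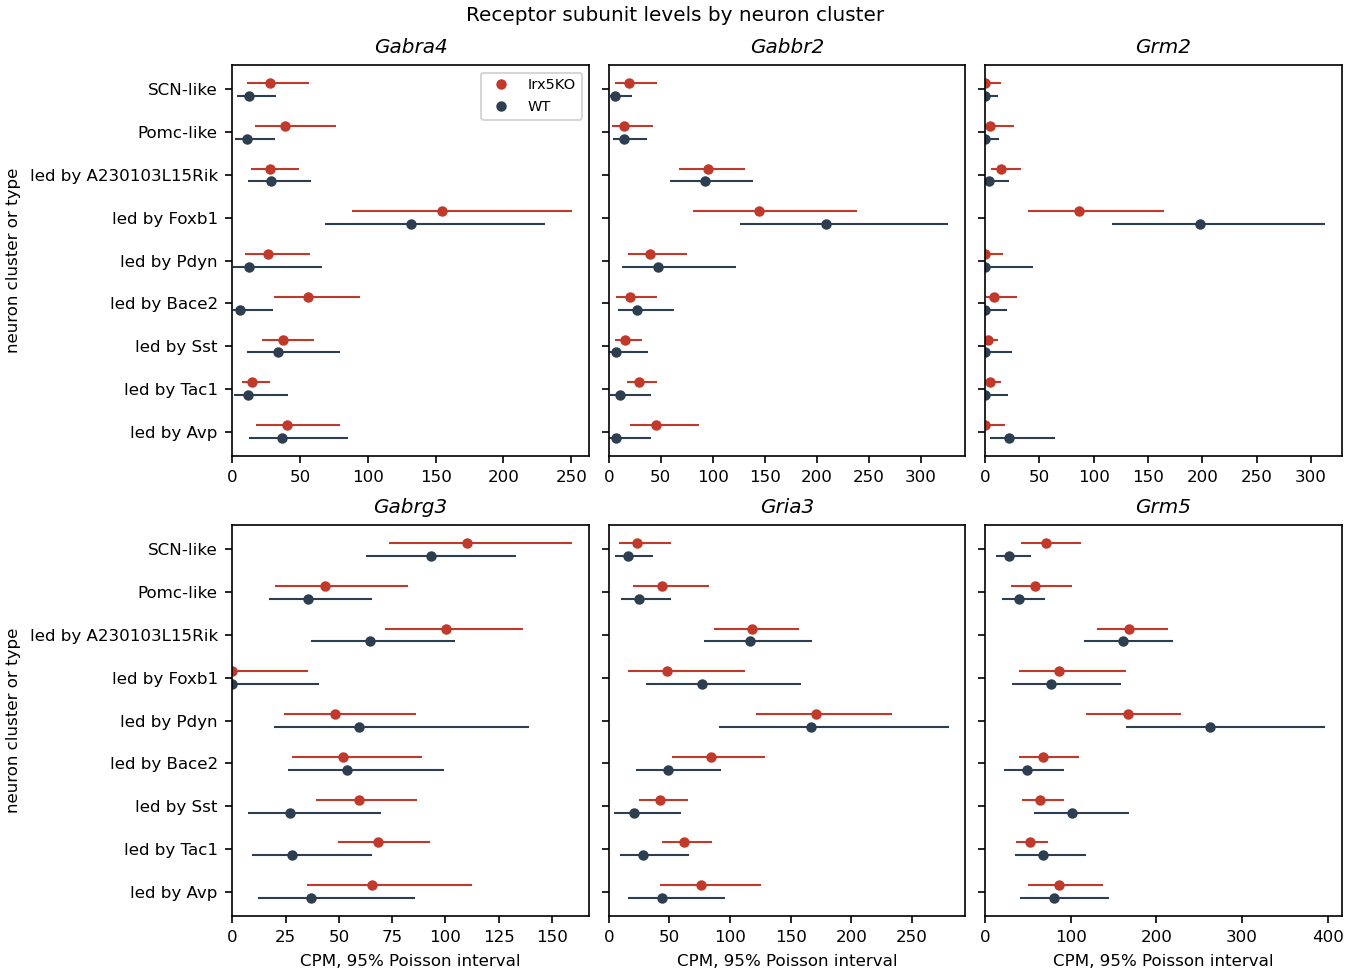
CPM with 95% Poisson intervals of 6 members in 9 neuron types or clusters, Irx5KO in red above WT in dark blue. Gabra4, Gabbr2 and Grm2 peak in the Foxb1-led cluster in both libraries, Gabrg3 in SCN-like cells, and Gria3 in the Pdyn-led cluster.

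Kndy-like cells, the Kiss1 neurons that drive reproductive hormone pulses, numbered 46 in Irx5KO and 17 in WT. WT was under the minimum of 20 cells set for neuron types, as it was for the Agrp-like cells below. Alpha subunit shares in these types were not covered by the rules for naming genes. In Kndy-like cells Gabra2 supplied 56.9% of 72 alpha subunit UMIs in Irx5KO (44.7 to 68.6%, Clopper-Pearson). In WT it supplied 60.7% of 28 (40.6 to 78.5%). The Gabra2 shares in all neuron-like cells were 35.2% and 34.8%. In Agrp-like cells, the hunger neurons (44 and 11 cells), Gabra5 supplied 26% (17.7 to 35.7%) and 33.3% (14.6 to 56.97%) of alpha UMIs, against 15.7% and 11.5% in all neuron-like cells.

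Cells with a UMI of Gad1, Gad2 or Slc32a1, the makers and vesicular transporter of GABA, and none of Slc17a6, the glutamate transporter of synaptic vesicles, were set against cells with Slc17a6 and none of those GABA markers. There were 497 GABA-marker and 165 Slc17a6 cells in Irx5KO (median 2928 and 2669 UMIs) and 343 and 128 in WT (2391 and 2138). Gabre, the epsilon subunit, was 2.04-fold higher (1.07 to 4.26) in GABA-marker cells in Irx5KO and 1.99-fold (0.765 to 6.54) in WT. Gria4 was 1.43-fold and 1.33-fold higher, with a WT interval that included 1. Gabrb1 was at 0.663 (0.543 to 0.814) in Irx5KO and 0.672 (0.504 to 0.902) in WT, and Gria3 at 0.611 and 0.512. Gabra4 (0.432 and 0.400), Grm7 (0.436 and 0.270) and Gabbr2 (0.603 and 0.229) were lower in GABA-marker cells with intervals below 1 in both libraries. Grm2 had 5 UMIs in GABA-marker cells and 13 in Slc17a6 cells in Irx5KO, and 0 and 22 in WT. These genes were chosen after their values were seen. Gabra4, Gabbr2, Grm7 and Grm2 were also highest of the neuron types in the Foxb1-led cluster in both libraries. The part of that cluster in these differences was not tested.

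Between the genotypes, the GABA-A genes of neuron-like cells summed higher in Irx5KO, while the interval of the summed ionotropic glutamate receptor genes included 1. The GABA-A ratio of Irx5KO over WT was 1.19 (1.14 to 1.26) and the ionotropic glutamate ratio 1.004 (0.956 to 1.05). Within GABA-A, the delta, epsilon and theta group was at 115 CPM in Irx5KO and 63.9 CPM in WT, a ratio of 1.81 (1.46 to 2.25). Alpha subunits had a ratio of 1.23 (1.15 to 1.32), beta subunits 1.20 (1.08 to 1.34) and gamma subunits 1.01 (0.912 to 1.11). AMPA genes had a ratio of 1.04 (0.978 to 1.10), NMDA 0.929 (0.814 to 1.06), kainate 0.907 (0.788 to 1.05), metabotropic 1.01 (0.872 to 1.16) and GABA-B 1.05 (0.941 to 1.17). Among neuron types with at least 20 cells in each library, the summed GABA-A ratio ran from 0.997 (Sst-led) to 1.51 (Pomc-like). Its interval was above 1 in Pomc-like, SCN-like and A230103L15Rik-, Bace2- and Tac1-led cells. It included 1 in the Avp-, Foxb1-, Pdyn- and Sst-led clusters. No summed ratio of other gene sets was set beside these.

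In neuron-like cells 32 members had at least 50 UMIs. Of these, 4 were 1.5-fold or more above WT in Irx5KO, beside 12.4% of all 10897 genes measured, and 1 was 1.5-fold or more below WT, beside 6.41%. The members' counts were thus near the background. Their median log2 ratio was 0.14 and that of all genes 0.068, and 22 of 32 were above WT, beside 57.3% of all genes.

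Gabrq, the theta subunit, had the highest ratio. It stood at 83.7 CPM in Irx5KO (259 UMIs) and 39.2 CPM in WT (70 UMIs), 2.14-fold higher (1.63 to 2.82). After thinning it was counted in 8.59% of 768 Irx5KO and 3.89% of 514 WT neuron-like cells (18.8% and 9.11% unthinned), and in no oligodendrocyte-like cell of either library. Gabra5 was at 125 CPM in Irx5KO (386 UMIs) and 74.0 CPM in WT (132 UMIs), 1.69-fold higher (1.38 to 2.07), and was counted in 9.64% and 6.03% of thinned cells. Gabrb2, a beta subunit, was at 20.1 CPM in Irx5KO (62 UMIs) and 10.1 CPM in WT (18 UMIs), 1.99-fold higher (1.16 to 3.57). Grm8, a presynaptic metabotropic receptor, was at 15.5 and 9.53 CPM, 1.63-fold higher with an interval (0.920 to 3.02) that included 1. Without the Avp-led cluster its log2 ratio was 0.42, under 1.5-fold. Grik4, a high-affinity kainate subunit, was at 16.2 CPM in Irx5KO (50 UMIs) and 29.7 CPM in WT (53 UMIs), a ratio of 0.544 (0.362 to 0.817).

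Neighbouring genes are given beside these. On the X chromosome, Gabre (31.7 CPM in Irx5KO and 24.1 CPM in WT, 1.32-fold, 0.910 to 1.93) and Gabra3 (1.15-fold, 1.003 to 1.33) lie beside Gabrq. The intervals of Gabrq and Gabra3 did not overlap. On chromosome 7, Gabra5 lies next to Gabrg3 (1.29-fold, 0.994 to 1.68).

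**Figure D4:**
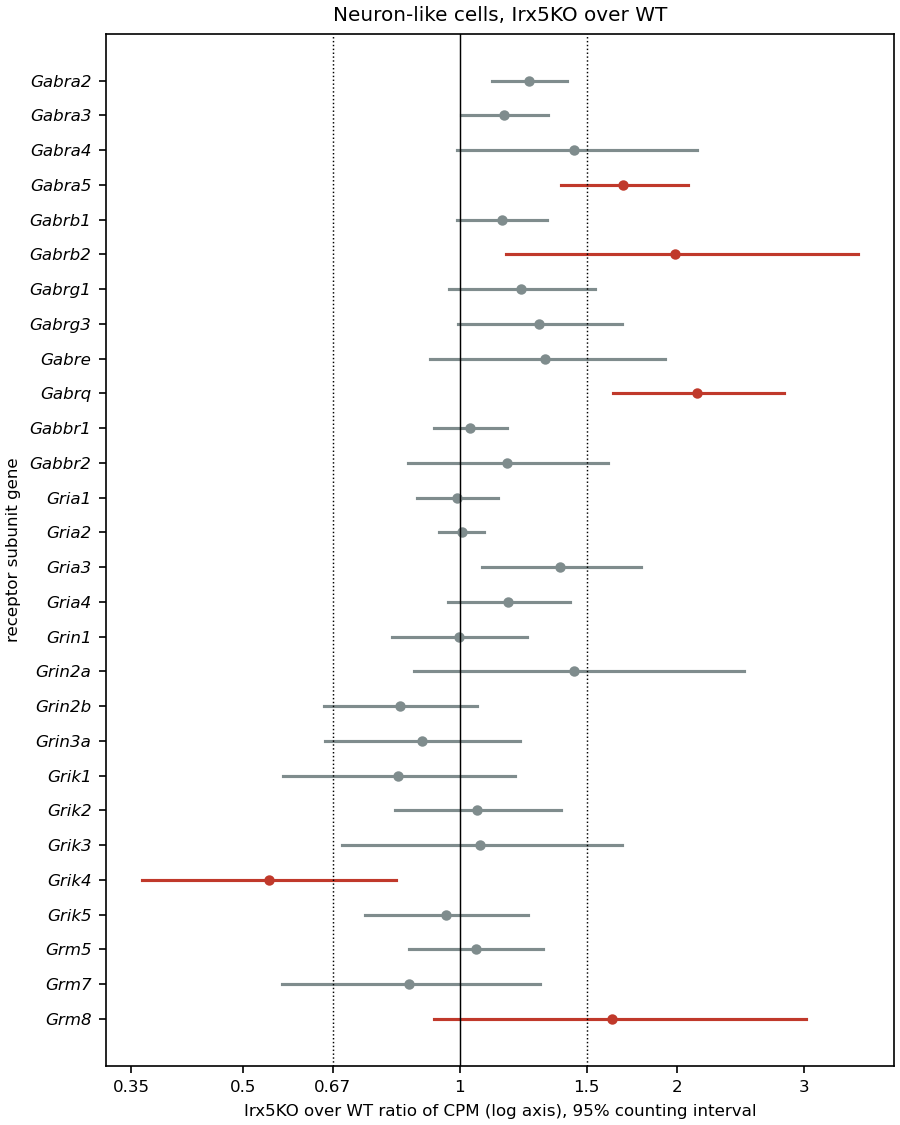
Irx5KO over WT ratio of CPM in neuron-like cells (log axis) with 95% counting intervals for measured members, some of which were left out. Lines are at 1, 1.5 and 1/1.5. The 5 members past 1.5-fold are in red: Gabra5, Gabrb2, Gabrq and Grm8 above and Grik4 below.

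These genes were picked from the sum over the same neuron-like cells, so their direction by neuron type is no separate check. Gabra5, Gabrq and Gabrb2 were each above WT in Irx5KO in 8 of the 9 types. Grik4 was below WT in 8 of 9, while Grm8 was above in 5 of 9. Gabra2, Gabra4 and Gria3, which were under 1.5-fold over all neuron-like cells, were also above WT in 8 of 9. Gabra5 was at 184 CPM in Irx5KO and 49.9 CPM in WT Pomc-like cells (38 and 14 UMIs), intervals that did not overlap. Gabrq was at 172 CPM in Irx5KO and 54.0 CPM in WT in the Bace2-led cluster (43 and 10 UMIs). The libraries differed in which neurons they held, for example 12.7% of neuron-like cells in the Tac1-led cluster in Irx5KO and 5.75% in WT. Gabra5, Gabrq, Gabrb2 and Grik4 were past 1.5-fold in 15 of 15 alternatives. These re-process the same 2 libraries that the genes were picked from, so they are no separate check. Weighting the neuron clusters alike, which is among them, leaves the make-up within each cluster as it was. The part of neuron make-up in these ratios was not tested.

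**Figure D5:**
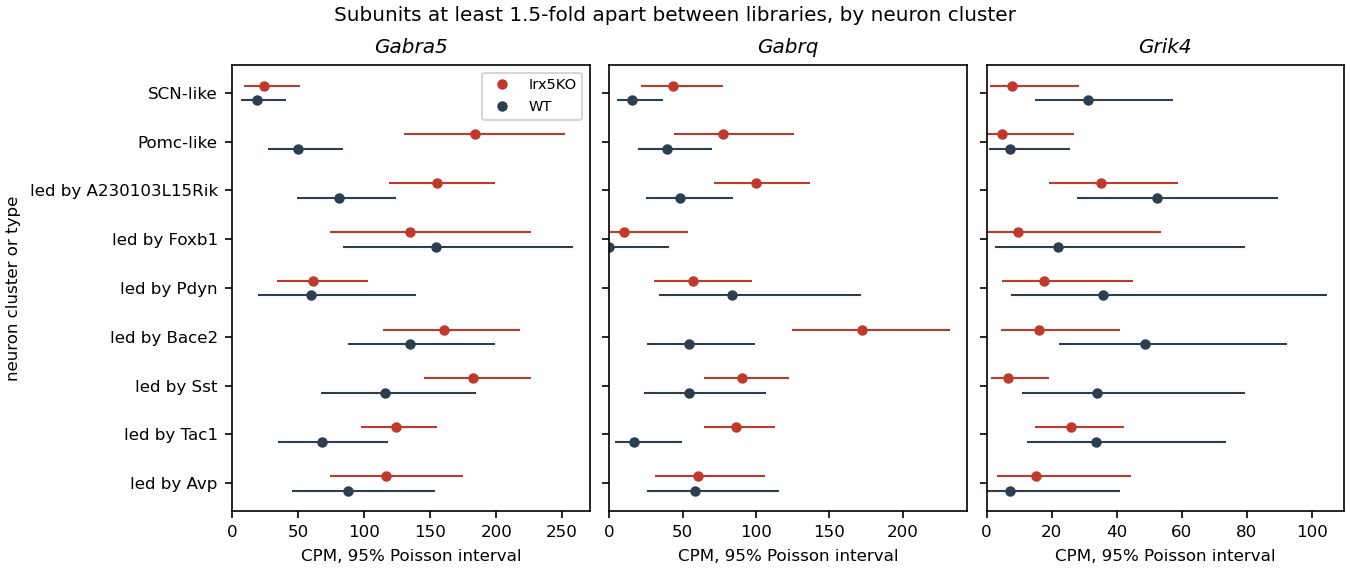
CPM with 95% Poisson intervals of Gabra5, Gabrq and Grik4 in 9 neuron types or clusters, Irx5KO in red above WT in dark blue. Gabra5 and Gabrq lie to the right in Irx5KO in 8 of 9 types, and Grik4 lies to the left in 8 of 9.

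Outside neurons, few members had enough UMIs for a ratio. In tanycyte-like cells 5 were measured, of which 0 were at least 1.5-fold higher (10.3% of all genes) and 1 lower (8.14%). That was Gria1, an AMPA subunit, with 35 UMIs in 30 Irx5KO cells and 64 UMIs in 46 WT cells, 44.2 and 111 CPM, a ratio of 0.398 (0.256 to 0.611). It was lower in both clusters, at 30.3 CPM in Irx5KO and 77.7 CPM in WT in the Crym-led and 71.8 and 172 CPM in the Scn7a-led one. In those cells Gria2 was at 1.24 (0.952 to 1.62), Grik3 at 0.943 (0.704 to 1.27) and Gabbr1 at 1.15 (0.793 to 1.69).

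In OPC-like cells 7 members were measured. Gabbr1 was 1.68-fold higher in Irx5KO (238 and 142 CPM; 0.976 to 2.85), where 7.87% of genes were at least 1.5-fold higher. Gabra3 had a ratio of 0.562 (110 and 195 CPM; 0.273 to 1.07), where 14.1% were lower. Of 2 members measured in oligodendrocyte-like cells, Grm3 was 1.61-fold higher (142 and 88.2 CPM; 0.997 to 2.61; 9.61% of genes) and Gabbr1 was at 1.24 (0.801 to 1.92). All 3 of the intervals past 1.5-fold include 1. Median-of-ratios scaling, which takes all genes counted in both libraries, shifts log2 ratios down by 0.19 in OPC-like and 0.16 in oligodendrocyte-like cells, whereas the median of the genes with at least 50 UMIs was -0.07 and -0.01 before it. With that scaling Gabbr1 was at 0.56, Gabra3 at -1.02 and Grm3 at 0.53, so Gabbr1 and Grm3 were under 1.5-fold.

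Genes that make, move or hold the transmitters and receptors in place were near the background as well. In neuron-like cells, 7 of 8 genes of GABA synthesis and transport were measured, with 1 at least 1.5-fold higher and 0 lower. That was Abat, which breaks GABA down, at 156.5 CPM in Irx5KO and 100.3 CPM in WT (1.56-fold, 1.31 to 1.86). The GABA-synthesising enzymes Gad2 (453 and 414 CPM) and Gad1 (230.2 and 234 CPM) were at 1.09 and 0.985. Of 10 genes of glutamate synthesis and transport, 7 were measured and 0 were 1.5-fold apart, with Slc17a6 at 0.849 (0.746 to 0.968) and the aminotransferase Got1 at 1.04.

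Of 15 partners of GABA receptors 12 were measured, 2 were higher and 0 lower. Plcl1, which binds GABA-A receptors, was 1.80-fold higher (1.21 to 2.73). The most abundant, Gabarapl1 and Gabarapl2, were at 0.989 and 0.915. Of 27 partners of glutamate receptors 19 were measured. The AMPA receptor protein Shisa9 was 1.62-fold higher (1.19 to 2.23) and the postsynaptic scaffold Shank1 was at 0.648 (0.530 to 0.794), while Nsf and Cnih2 were at 1.04 and 1.06. Of 10 related receptors outside the name rule 6 were measured. The glycine receptor subunit Glra3 was 2.50-fold higher (1.32 to 5.15), and 1 other was at least 1.5-fold lower. Glrb and Grid1 were at 0.935 and 1.35. In tanycyte-like cells 3 genes of GABA synthesis and transport were measured, of which 1 was at least 1.5-fold higher. That was Abat (2.08-fold, 1.57 to 2.79). Of glutamate synthesis and transport 4 were measured and 1 was higher, the transporter Slc1a2 (1.86-fold, 1.53 to 2.27). Among all genes measured in these cells 10.3% were at least 1.5-fold higher.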

How the data were processed

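UMI counts were deposited for WT. Natural log values of 1 plus counts scaled to a sum of 10000 were deposited for Irx5KO and for both libraries merged, judged by the values. Undoing the log and the scaling gave whole numbers within 1e-06 for 100% of Irx5KO entries, which were used as counts. For WT the merged values so treated matched the raw ones, with 0 differing entries. Raw counts for both libraries had been assumed in the design. STAR 2.6.0b, Seurat 3, Picard, bcl2fastq and mm10 are listed in the submitters' processing notes, without settings.

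Both libraries were limited to cells with 500 to 5000 genes and no more than 10% of UMIs from mitochondrial genes, since the Irx5KO table (at most 4985 genes and 9.93%) had been filtered before deposit and the WT table had not. The Scrublet method (expected rate 5%) called 9 of 1969 Irx5KO and 8 of 1840 WT barcodes, which were removed. Leiden clustering (resolution 1, 2000 variable genes without the 39 members, 30 components, 15 neighbours) was named from marker lists. A name needed the highest score, of at least 1, at least 3 markers 2-fold up, and no other list with more markers among the 10 leading genes, or as many where it had any. Neuron types also needed 1 marker there. This rule was written with the clusters already known. UMIs were summed per class over the 25618 shared genes. Sums have exact Poisson, ratios exact conditional binomial and shares Clopper-Pearson 95% intervals. Ratios between genotypes are counted where a class had 50 cells or more in each library and a gene 50 UMIs or more over both. The ratio computation was tested on simulated data. PCR copies are collapsed by UMI.

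Named genes are, per family, the up to 4 members with most neuron-like UMIs, members at least 1.5-fold apart between libraries in a class, the up to 3 members with most UMIs (at least 20) per other class, and the up to 3 members furthest above other neurons per neuron type (at least 10 UMIs in each library, at least 20 cells). A few genes picked by these rules are counted in the totals but not described. The members, lists and rules were chosen with earlier results of these data known. Alternatives changed the filters, doublets, clustering, scaling, thinning, UMI minimum and weighting. Python 3.11.15, numpy 2.4.6, scipy 1.17.1 and scanpy 1.11.5 were used.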

Additional observations from a re-analysis of the deposited data

How the results depend on the processing

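Of 216 summary values under the alternatives, 211 stayed within their limits. The count of members at least 1.5-fold higher in Irx5KO neuron-like cells was 2 with at least 100 UMIs in place of 4, since Gabrb2 and Grm8 then fall under the minimum. The count of lower members was 2 with at least 20 UMIs and 3 with no minimum, in place of 1. The log2 ratio of the summed alpha subunits was 0.14 as a mean over cells in place of 0.30, and that of the AMPA subunits 0.18 with cells thinned to 1000 UMIs in place of 0.05, and the cause was not tested. Of 510 values for single members 502 were unmoved, 8 moved, and 0 of those past 1.5-fold changed sign. Among the moved, Gria4 in neuron-like cells reached 0.67 as a mean over cells, Grik2 reached 0.81 and Grin2b -0.74 after thinning. Gabra5, Gabrq, Gabrb2 and Grik4 in neuron-like cells, Gria1 in tanycyte-like cells and Gabra3 in OPC-like cells were past 1.5-fold in 15 of 15 alternatives, Grm8 in 14, and Gabbr1 in OPC-like and Grm3 in oligodendrocyte-like cells in 12. The alternative without the Avp-led cluster was chosen after seeing the data. The order of classes was not computed under the scalings or with clusters weighted alike. No paired analysis was possible because each genotype has 1 pooled library. Depth limits most values outside neuron-like cells, where a member often has fewer than 50 UMIs.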
